A study of Mus musculus with 8 samples.

Results

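The T cell receptor complex and the proteins that carry its first signals were followed at the transcript level in mouse spleen CD4+ T cells. The set was a list of 41 gene symbols, covering the CD3 and zeta chains, the co-receptor CD4 and other surface proteins, kinases, adaptors, exchange factors, phosphatases, negative regulators and NFAT factors. Its members were the rows of the deposited table with those symbols, and all 41 were found among 54532 listed genes. The cells came from wild-type (WT) mice and were given vehicle (4 libraries) or dimethyl succinate (4 libraries) for 3 days. The header of the deposited comparison calls the vehicle group DMSO. Dimethyl succinate is an ester of succinate that enters cells, and the series title concerns succinate, CD4+ T cell infiltration and renal fibrosis. Strain, age, sex, dose and any stimulation of the receptor in culture are not given in the sources used here. Whether each library stands for its own animal or culture is not stated, and the p-values therefore reflect spread between these libraries alone, which may be technical in origin.

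The T cell receptor recognises a peptide held by an MHC molecule, but its antigen-binding chains have no signalling part of their own. The CD3 chains and the zeta chain (Cd247) carry tyrosine motifs that LCK phosphorylates, ZAP70 then binds them, and ZAP70 phosphorylates the scaffolds LAT and SLP-76. The scaffolds gather phospholipase C gamma 1, RAS activators and VAV1, which lead to calcium, ERK and NFAT signals, while phosphatases, ubiquitin ligases and diacylglycerol kinases hold the signal in check.

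Libraries held 13407295 to 16688854 counts. All 41 members passed the filter on low counts, with a lowest count of 159 in any library (Sla2) and a median rank at the 93.6th percentile of mean level among the 13981 genes tested. Together they took 1.13% ± 0.0604 of counts with vehicle and 1.18% ± 0.00826 with dimethyl succinate (SD, n = 4). Vehicle replicate 4 was lowest at 1.039%. Vehicle replicates 1 to 3 were at 1.151% to 1.167%, which overlapped the 1.166% to 1.185% of the dimethyl succinate libraries. Vehicle replicate 4 stood apart: its mean correlation with the other libraries was 0.981 against 0.989 to 0.991, and mitochondrial transcripts made up 0.252% of its counts, where the others had 1.16% to 1.48%. The defining T cell markers (the 4 CD3 and zeta chains with Trac, Trbc1 and Trbc2) summed to 1346 to 1680 CPM (counts scaled to a common library size) under vehicle, with replicate 4 lowest, and to 1597 to 1704 CPM under dimethyl succinate. All 21 markers of cytotoxic and gamma delta T cells, B cells, natural killer cells, myeloid and dendritic cells and erythroid cells were at or below 8.50 CPM in every library, and Siglech was at 0 in all 8. Summed levels were 3.03 to 3.69 CPM with vehicle and 3.06 to 4.30 with dimethyl succinate for the B cell list, 5.50 to 5.98 and 5.85 to 7.54 for cytotoxic T cells, and 3.76 to 7.10 and 5.56 to 9.77 for myeloid cells. The dendritic list was the highest of these, at 7.55 to 11.1 CPM with vehicle and 9.73 to 10.7 with dimethyl succinate. In the same order, gamma delta T cell markers summed to 4.38 to 8.15 and 6.42 to 8.06 CPM. Natural killer markers summed to 1.59 to 2.05 and 1.01 to 2.19, and erythroid markers to 0.523 to 1.78 and 0.979 to 2.21. In bulk libraries fewer cells of a type and less RNA per cell cannot be told apart.

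Per gene length the members spanned from 3.84 to 315 FPKM (the authors' values per kilobase of gene and per library depth). The surface glycoproteins Cd5, Cd6 and Cd2 led, at 273 ± 32.4, 251 ± 20.4 and 238 ± 28.1 FPKM with vehicle and 315 ± 14.2, 266 ± 11.9 and 235 ± 11.3 with dimethyl succinate (SD, n = 4). Below them lay Lck, the kinase that opens the cascade, at 126 ± 10.3 and 129 ± 6.13 FPKM, Lcp2 at 124 ± 15.5 and 130.3 ± 6.12, Lat at 121 ± 27.1 and 113 ± 8.07, and Zap70 at 114 ± 17.9 and 116 ± 6.05. The SDs of these 4 overlapped with vehicle, so no order is read among them there. At the low end stood Sla2, an adaptor that lowers receptor signalling, at 3.84 ± 0.184 and 4.06 ± 0.604 FPKM, and Ubash3b at 4.93 ± 0.648 and 5.08 ± 0.231. Among related members the ratio of FPKM values within a library showed which form was the more abundant per length. Lck exceeded Fyn, the other SRC-family kinase, by a ratio of 1.62 to 2.18 under vehicle and 1.95 to 2.15 under dimethyl succinate, and Cbl and Cblb, the ubiquitin ligases, stood near equality at 0.916 to 1.03 and 0.935 to 1.01. Sla exceeded Sla2 by 7.82 to 8.75 and 6.22 to 9.79. Grb2 exceeded Grap2 by 2.16 to 2.54 with vehicle and 2.33 to 2.56 with dimethyl succinate, and Ptpn6 exceeded Ptpn22 by 3.87 to 4.26 and 3.48 to 4.15. These ratios are a description, with no test.

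**Figure D1:**
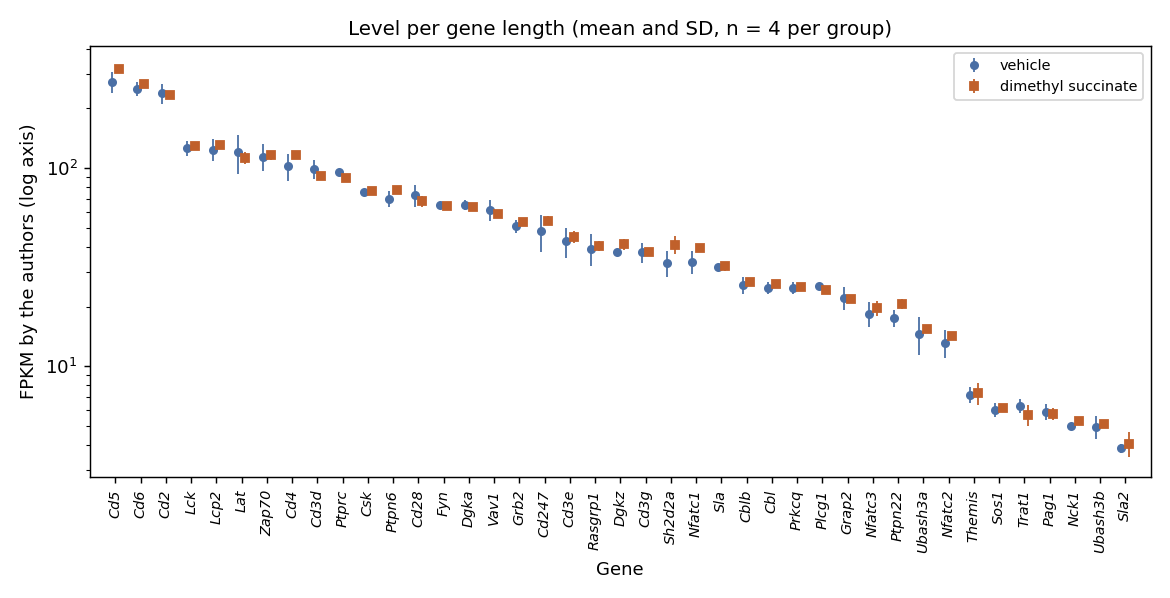
Level of each of the 41 members in FPKM on a log axis, ordered by level, as the mean and SD of 4 vehicle libraries (circles) and 4 dimethyl succinate libraries (squares). Cd5, Cd6 and Cd2 stand above the other members in both groups, and Sla2 is lowest at 3.84 and 4.06 FPKM.

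By edgeR's quasi-likelihood test 0 of the 41 members passed an adjusted p of 0.05. Over the whole dataset 0 of 13981 genes (0.0%) passed it, 805 (5.76%) had an unadjusted p under 0.05, and the lowest adjusted p among members was 0.802 in edgeR. DESeq2 called 4 genes of the whole dataset and limma-voom 0, with 0 members in either. At an unadjusted p under 0.05 in the same edgeR fit, 4 members were higher under dimethyl succinate (9.8% of 41) and 0 were lower. Over all genes tested 2.93% were higher and 2.83% lower at that p. The 4 were Sh2d2a, Nfatc1, Ptpn22 and Cd5. The groups did not overlap in CPM for 3 of them, Sh2d2a, Nfatc1 and Cd5, all higher, which is 7.3% of members against 2.5% of genes tested, and 0 members were lower without overlap against 2.32%. Log2 fold changes ran from -0.15 to 0.31, and 29 of 41 lay above 0 (70.7%) where 49.6% of all genes did. Their median was 0.043 against -0.0011 over all genes. The members and lists were chosen with earlier results of these data known. The shares set beside all genes, here and below, are therefore a description only. For all 41 members the 95% interval lay within a 1.5-fold change in either direction, which held for 71.7% of genes tested. The members rank high in level, and their median standard error was 0.0837 against 0.115 over all genes. Their intervals were thus narrower, and the contrast is not read as a sign of unusual stability. With smaller errors, smaller changes also reach an unadjusted p under 0.05. The shares by p and by overlap, here and below, were not set against genes of like level.

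Many of these values were moved by vehicle replicate 4, the library with the low mitochondrial share. It was the lowest of the 8 libraries for 25 of 41 members (61.0%) and the highest for 8 (19.5%), where it was lowest for 29.4% and highest for 29.0% of all genes tested. Its level ranged from 61.5% of the mean of the other vehicle libraries (Ubash3a) to 149% (Lat), with a median of 84.0%. Without it 22 of 41 members lay above 0 (53.7%) against 50.0% of genes, with a median log2 fold change of 0.0097, and 13 members changed sign. These were Cd3e, Cd3g, Lck, Fyn, Prkcq, Lat, Lcp2, Themis, Sos1, Vav1, Rasgrp1, Ubash3a and Nfatc3. The median standard error dropped from 0.0837 to 0.0499. Neither the number of sign changes nor this drop was set against all genes, so neither is read as particular to the members. Then 7 members were higher at an unadjusted p under 0.05 in edgeR (17.1%, against 4.43% of 14232 genes) and 2 were lower (4.9%, against 4.12%; in either direction 8.54% of genes), and 0 passed the adjusted threshold, which 0.197% of genes did. Groups then did not overlap for 4 members that were higher (9.8%, against 4.93% of genes) and 2 that were lower (4.9%, against 4.68%). The lowest adjusted p among members without that library was 0.138, for Cd28. What part the mitochondrial share of that library has in these values was not tested.

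**Figure D2:**
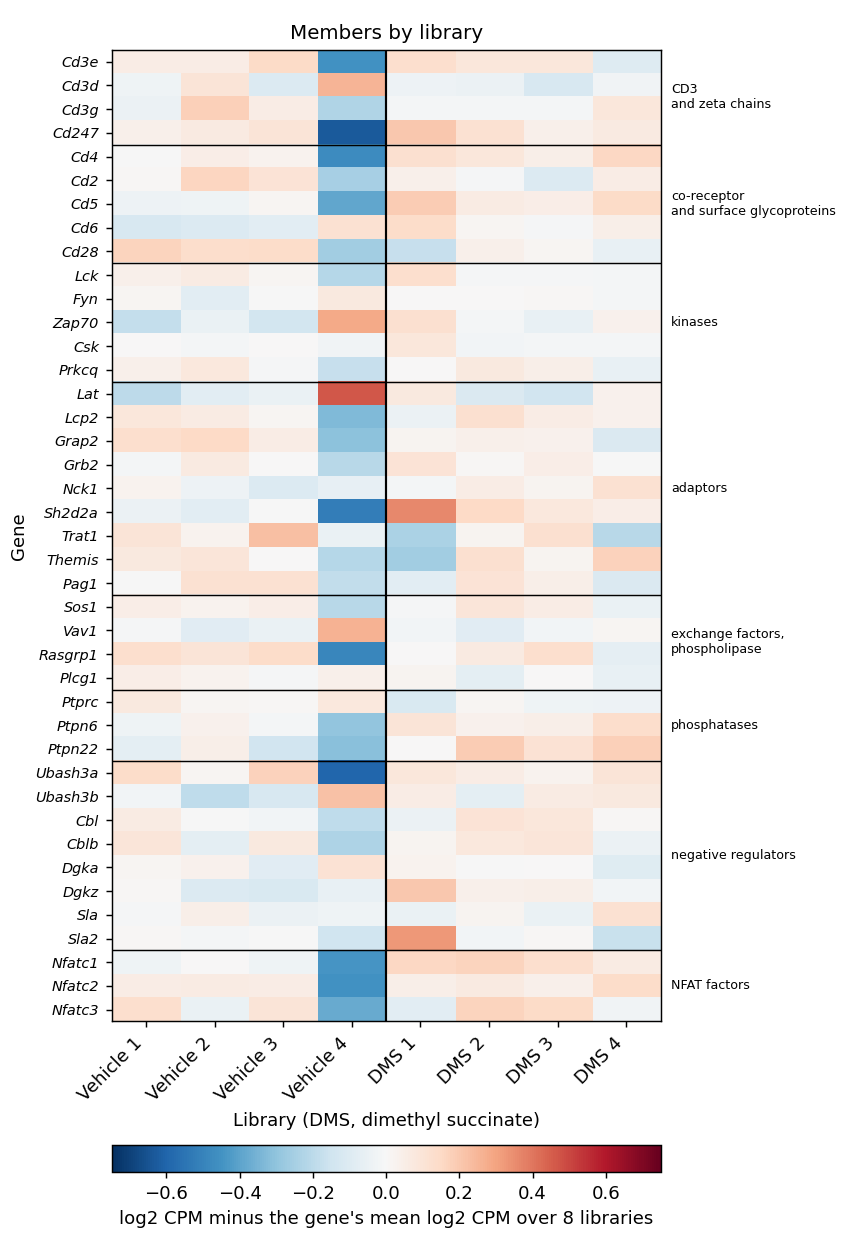
Each row is a member, grouped by role, and each column a library. Colour gives log2 CPM minus the gene's mean over the 8 libraries. Vehicle replicate 4 is lowest for 25 of the 41 rows, while Lat, Zap70, Vav1 and Cd3d are highest there.

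**Figure D3:**
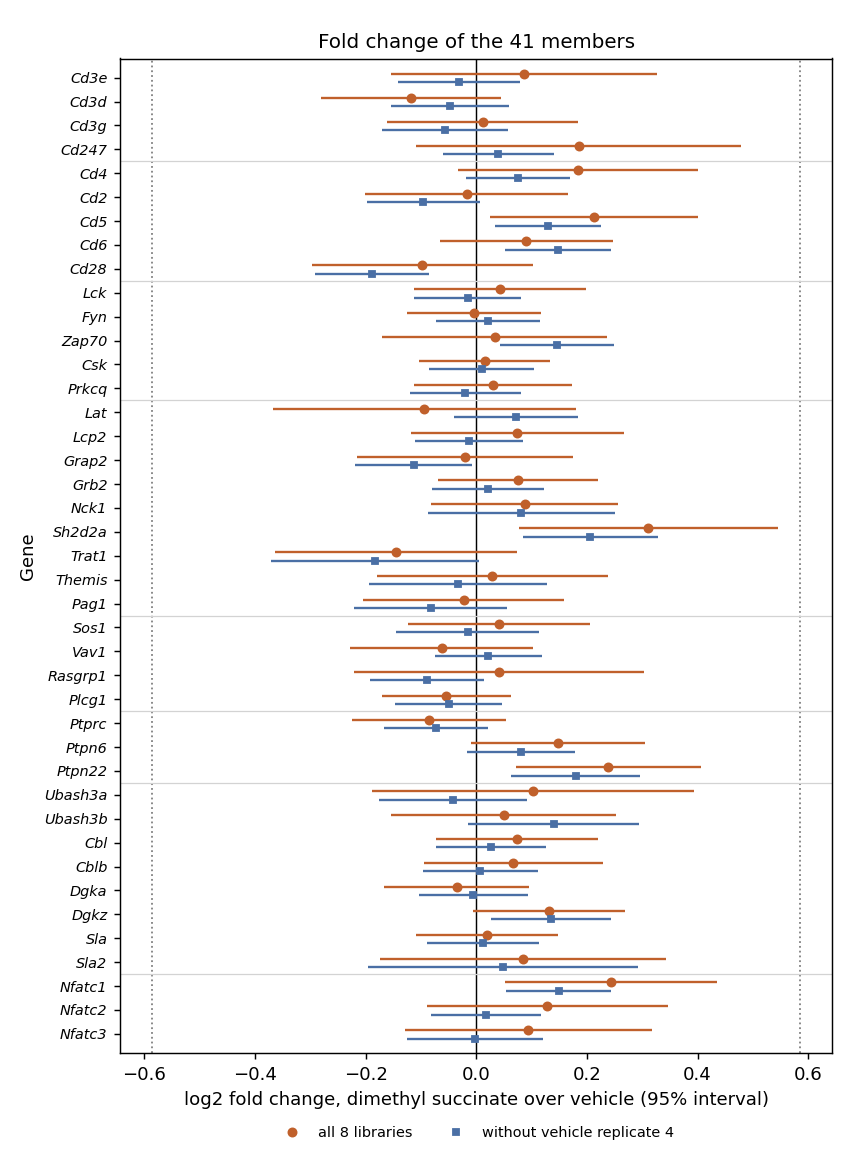
Log2 fold change of dimethyl succinate over vehicle for each member with its 95% interval, from all 8 libraries (circles) and without vehicle replicate 4 (squares). Dotted lines mark a 1.5-fold change, and all 41 intervals of both fits lie between them. The intervals of Cd5, Sh2d2a, Ptpn22 and Nfatc1 stay above 0 in both fits.

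The 3 CD3 genes lie together on chromosome 9 within 40056 bases (GRCm38), with Cd3g on the minus strand (chromosome 9, 44969572 to 44980431), Cd3d on the plus strand (chromosome 9, 44981786 to 44987339) and Cd3e on the minus strand (chromosome 9, 44998740 to 45009627). Cd3g and Cd3d are read in opposite directions from starts 1355 bases apart. Their start-site windows are shown because these neighbours had unlike patterns over the libraries, given after the sequences, and the Cd5 and Ptpn22 windows because both genes were among the 4 with the lowest p. Each runs from 250 bases before to 50 bases after a RefSeq start (GRCm38.p6), 5′ to 3′ on the gene's strand. Ptpn22 has 2 such windows, of which the one that starts first is shown. Capitals mark the letters CACCTG on either strand (CACCTG or CAGGTG), a form of the E-box bound by E proteins, chosen after the sequences were read.
Cd3g (chr9:44980382-44980681, minus strand): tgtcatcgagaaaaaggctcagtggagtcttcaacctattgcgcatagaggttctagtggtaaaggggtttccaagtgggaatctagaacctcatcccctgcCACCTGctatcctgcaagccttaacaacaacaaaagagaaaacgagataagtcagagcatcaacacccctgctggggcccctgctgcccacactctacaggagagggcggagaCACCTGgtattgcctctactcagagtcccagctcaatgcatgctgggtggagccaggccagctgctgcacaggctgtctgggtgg
Cd3d (chr9:44981536-44981835, plus strand): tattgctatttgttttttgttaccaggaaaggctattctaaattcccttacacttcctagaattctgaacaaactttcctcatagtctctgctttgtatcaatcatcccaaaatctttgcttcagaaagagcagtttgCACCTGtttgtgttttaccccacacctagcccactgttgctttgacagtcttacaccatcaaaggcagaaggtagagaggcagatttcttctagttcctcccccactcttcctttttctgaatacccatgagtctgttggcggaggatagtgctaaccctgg
Cd3e (chr9:45009562-45009861, minus strand): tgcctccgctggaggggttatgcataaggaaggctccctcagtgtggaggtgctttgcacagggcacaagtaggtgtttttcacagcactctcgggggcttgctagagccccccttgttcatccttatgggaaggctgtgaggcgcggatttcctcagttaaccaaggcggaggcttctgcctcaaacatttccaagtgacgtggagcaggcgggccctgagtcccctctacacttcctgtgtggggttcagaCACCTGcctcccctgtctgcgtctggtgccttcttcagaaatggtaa
Cd5 (chr19:10738925-10739224, minus strand): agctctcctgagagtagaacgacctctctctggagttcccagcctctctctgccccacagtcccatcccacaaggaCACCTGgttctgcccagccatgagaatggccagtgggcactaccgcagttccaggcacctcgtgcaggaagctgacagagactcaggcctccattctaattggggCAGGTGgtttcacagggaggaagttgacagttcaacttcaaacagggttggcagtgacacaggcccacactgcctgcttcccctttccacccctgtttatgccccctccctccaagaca
Ptpn22 (chr3:103859545-103859844, plus strand): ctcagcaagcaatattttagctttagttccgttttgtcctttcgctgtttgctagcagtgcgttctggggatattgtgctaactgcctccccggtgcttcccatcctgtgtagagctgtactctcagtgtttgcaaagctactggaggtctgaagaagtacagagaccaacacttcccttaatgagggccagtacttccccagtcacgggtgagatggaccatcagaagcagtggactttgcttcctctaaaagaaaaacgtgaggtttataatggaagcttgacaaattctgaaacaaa
The marked letters occurred 2 times in the Cd3g window, 1 time each in those of Cd3d and Cd3e, 2 times in that of Cd5 and 0 times in that of Ptpn22. Windows were found for 33 of the 41 members. At least 1 window held CACCTG in 16 of these 33 genes (48.5%), against 22.6% of 27025 genes with windows of the same length. The letters had been picked from the members' own windows, so this share is a description only. The E-box CAGCTG, which cannot share letters with it, was found for 6 members (18.2% against 18.3% of genes). The RUNX core TGTGGT was found for 7 (21.2% against 18.9%), the ETS core CGGAAG for 4 (12.1% against 18.8%) and the NFAT core GGAAAA for 9 (27.3% against 26.1%), each on either strand. The ETS and NFAT cores share GGAA but differ in the next letter, so no match counts for both. The cyclic AMP element TGACGTCA was found for 1 (3.03% against 2.03%) and the TATA box TATAAA for 6 (18.2% against 15.7%). A share per gene rises with windows per gene, and members had 49 windows for 33 genes, where all had 32851 for 27025. Per window CACCTG was in 36.7% against 20.2%, CAGCTG in 12.2% against 16.3% and RUNX in 14.3% against 16.8%. ETS was in 8.16% against 16.9%, NFAT in 18.4% against 23.4%, TGACGTCA in 2.04% against 1.79% and TATAAA in 12.2% against 13.6%. For RUNX, NFAT and TATAAA the direction was opposite to that per gene. A match describes the letters in the window and is not a site.

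Of the 4 CD3 and zeta chains, which form the signalling part of the receptor, 0 passed in edgeR at either threshold. Cd3e (ENSMUSG00000032093) stood at 185, 186, 197 and 130.2 CPM in vehicle replicates 1 to 4 and at 195, 189.7, 189.8 and 167 CPM in dimethyl succinate replicates 1 to 4. All libraries lay between 167 and 197 CPM except vehicle replicate 4, and the groups overlapped. In log2 terms the difference was 0.086 ± 0.111 (SE), and -0.030 without that library. Cd3d (ENSMUSG00000032094) stood at 169.6, 185, 162 and 207 CPM in the same order with vehicle and at 169, 168, 159.7 and 170.2 with dimethyl succinate. Here vehicle replicate 4 was the highest library, opposite to its place for Cd3e and Cd3g, and the log2 fold change was -0.12 ± 0.0752 (SE), or -0.047 without it. Cd3g (ENSMUSG00000002033) was at 119.6, 139.9, 128 and 106 CPM with vehicle and 122, 122, 122 and 131 with dimethyl succinate, a log2 fold change of 0.012 ± 0.0796 (SE) with a 95% interval of -0.16 to 0.18. Its sign turned without vehicle replicate 4, to -0.056. Per length Cd3d was the most abundant of the 3, at a ratio to Cd3e of 1.84 to 2.24 in vehicle replicates 1 to 3 and 1.89 to 2.29 under dimethyl succinate. In vehicle replicate 4 that ratio was 3.57, above every other library. Cd247 (ENSMUSG00000005763), the zeta chain with the most tyrosine motifs of the complex, stood at 278, 284, 289 and 175 CPM with vehicle and 311, 293, 278 and 284 with dimethyl succinate. Vehicle replicate 4 was at 61.7% of the mean of the other vehicle libraries, which overlapped the dimethyl succinate libraries. The log2 fold change of 0.19 ± 0.134 (SE) became 0.040 without it. In GENCODE M21, 60.3% of the exon bases of Cd247 (chromosome 1, 165788681 to 165877277) are shared with Pou2f1 on the opposite strand, and no source says whether reads were counted by strand, so its count is uncertain. Pou2f1 stood at 55.2 to 74.1 CPM under vehicle, lowest in replicate 4, and at 61.3 to 68.9 under dimethyl succinate.

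Among the co-receptor and the other 4 surface proteins, Cd5 stood higher under dimethyl succinate in every library, and Cd6 higher and Cd28 lower once vehicle replicate 4 was left out, though none passed an adjusted p of 0.05. Cd4 (ENSMUSG00000023274), the co-receptor that brings LCK to the complex, stood at 439, 455, 448 and 317 CPM in vehicle replicates 1 to 4 and 477, 466, 452 and 489 CPM in dimethyl succinate replicates 1 to 4. Of the vehicle libraries only replicate 2 reached into the dimethyl succinate range, above dimethyl succinate replicate 3, and the log2 fold change was 0.18 ± 0.1 (SE), or 0.075 without replicate 4. Cd5 (ENSMUSG00000024669), a scavenger-receptor protein that restrains receptor signalling, stood at 593, 595, 615 and 465 CPM with vehicle and 694, 635, 629.8 and 671 with dimethyl succinate. Every dimethyl succinate library lay above every vehicle library, also with replicate 4 left out. In log2 terms the difference was 0.21 ± 0.0867 (SE; 95% interval 0.026 to 0.40), with an unadjusted p of 0.029 and an adjusted p of 0.802 in edgeR. Without vehicle replicate 4 it was 0.13 ± 0.0469 (SE), adjusted p 0.386 in edgeR, and the unadjusted p in edgeR was 0.0767 without dimethyl succinate replicate 1 and 0.0627 without replicate 4. In limma on log2(FPKM + 1) it was 0.0511. Cd6 (ENSMUSG00000024670), a relative of Cd5 that lies 50338 bases from it on the same strand of chromosome 19, stood at 815, 823, 836 and 958 CPM with vehicle and 973, 892, 879 and 910.2 with dimethyl succinate. Vehicle replicates 1 to 3 lay below every dimethyl succinate library, and replicate 4 lay above 3 of the 4. The log2 fold change of Cd6 was 0.090 ± 0.0724 (SE), and 0.15 ± 0.0463 (SE) without vehicle replicate 4, with an unadjusted p of 0.00372 and an adjusted p of 0.283 in edgeR. The ratio of Cd5 to Cd6 in FPKM was 1.19 to 1.21 in vehicle replicates 1 to 3, 1.17 to 1.21 under dimethyl succinate and 0.799 in vehicle replicate 4. In that library Cd5 was the lowest of the 8 while Cd6 was the second highest.

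Cd28 (ENSMUSG00000026012), the main costimulatory receptor of T cells, stood at 486, 473, 476 and 361 CPM in vehicle replicates 1 to 4 and 383, 444, 437 and 416 CPM in dimethyl succinate replicates 1 to 4. Vehicle replicates 1 to 3 lay above every dimethyl succinate library, whereas replicate 4 lay below them all. The groups differed on the log2 scale by -0.10 ± 0.0926 (SE) with all libraries and -0.19 ± 0.0501 (SE) without vehicle replicate 4, where the 95% interval was -0.29 to -0.085, the unadjusted p 0.000909 and the adjusted p 0.138 in edgeR. Cd2, an adhesion receptor that binds CD48 in mice, ranged over 416, 462, 443 and 347 CPM with vehicle and 424, 411, 384 and 429 with dimethyl succinate, in replicate order, which overlapped, and its log2 fold change was -0.017 ± 0.0848 (SE).

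**Figure D4:**
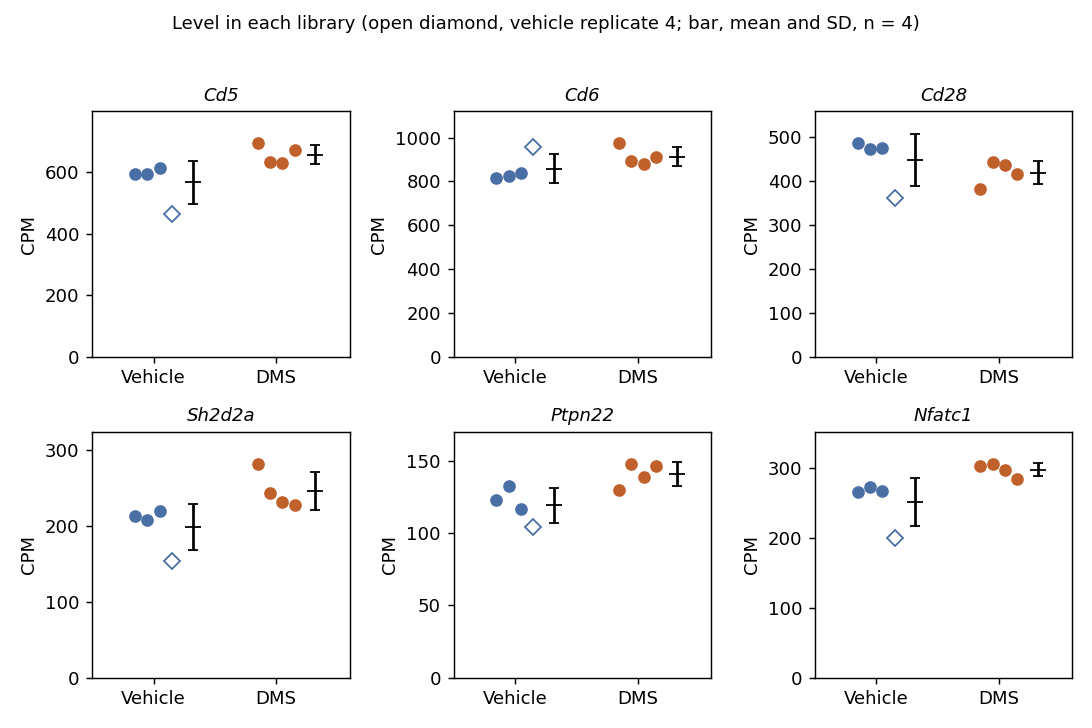
CPM of 6 members in each of the 8 libraries, with the mean and SD of each group (n = 4) and vehicle replicate 4 as an open diamond. In Cd5, Sh2d2a and Nfatc1 all dimethyl succinate libraries (DMS) lie above all vehicle libraries, while the diamond lies below its group in Cd28 and above it in Cd6.

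The 5 kinases lay close to their vehicle level, with log2 fold changes from -0.0038 to 0.043, and 0 had an unadjusted p under 0.05 in edgeR. Lck (ENSMUSG00000000409) stood at 386, 392, 380.1 and 324 CPM in vehicle replicates 1 to 4 and 409, 373, 373 and 372 CPM in dimethyl succinate replicates 1 to 4. The groups overlapped, and its log2 fold change of 0.043 ± 0.072 (SE) was -0.016 without vehicle replicate 4. Zap70 (ENSMUSG00000026117), the kinase that binds the phosphorylated chains, stood at 304, 333, 314 and 419.9 CPM with vehicle and 375, 341, 333 and 353 with dimethyl succinate. Vehicle replicate 4 was the highest of all libraries, at 132% of the mean of the other vehicle libraries, and the groups overlapped with or without it, since vehicle replicate 2 and dimethyl succinate replicate 3 were both at 333 CPM. Between groups the log2 difference was 0.033 ± 0.0939 (SE) with it and 0.15 ± 0.0502 (SE) without it, where the unadjusted p was 0.00738 and the adjusted p 0.346 in edgeR. Fyn stood at 284 ± 12.4 and 283 ± 1.85 CPM (SD, n = 4), Csk, which phosphorylates the inhibitory tyrosine of LCK, at 285 ± 2.96 and 288 ± 10.3, and Prkcq, the protein kinase C that links the receptor to NF-kB, at 176 ± 13.1 and 180.1 ± 6.98, for vehicle and dimethyl succinate. The 95% interval of Csk was -0.10 to 0.13 and that of Fyn -0.12 to 0.12 on the log2 scale.

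Of 9 adaptors, Sh2d2a had the largest log2 fold change of all members. Sh2d2a (ENSMUSG00000028071) encodes TSAd, a T cell adaptor that binds LCK. It stood at 213, 208, 219 and 153 CPM in vehicle replicates 1 to 4 and 281, 244, 232 and 227 CPM in dimethyl succinate replicates 1 to 4. Every dimethyl succinate library lay above every vehicle library, by a margin of less than 10 CPM between the closest pair. On the log2 scale the groups differed by 0.31 ± 0.107 (SE; 95% interval 0.078 to 0.54), with an unadjusted p of 0.0132 and an adjusted p of 0.802 in edgeR. It was 0.21 ± 0.0592 (SE) without vehicle replicate 4, the lowest library, where the adjusted p was 0.21 in edgeR. Without dimethyl succinate replicate 1, the highest library, it was 0.24 with an unadjusted p of 0.0523 in edgeR.

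Lat (ENSMUSG00000030742), the membrane scaffold of the pathway, had the widest spread among vehicle libraries, a coefficient of variation of 22.1%, the highest of the 41. It stood at 280.3, 305, 311 and 444 CPM with vehicle and 338, 298, 291 and 328 with dimethyl succinate. Vehicle replicate 4 was the highest of all libraries and the other 3 overlapped the dimethyl succinate libraries, and the log2 fold change of -0.094 ± 0.125 (SE) turned to 0.072 without it. Grap2 (ENSMUSG00000042351), which encodes GADS, the link from LAT to SLP-76, stood at 150.1, 152, 143 and 111 CPM with vehicle and 139, 141, 141 and 128 with dimethyl succinate. Vehicle replicates 1 to 3 lay above every dimethyl succinate library and replicate 4 below all, and the log2 fold change of -0.020 ± 0.09 (SE) became -0.11 ± 0.0513 (SE) without it, with an unadjusted p of 0.0373 and an adjusted p of 0.546 in edgeR. Lcp2, which encodes SLP-76, stood at 556 ± 70.7 and 585 ± 26.6 CPM (SD, n = 4), and Grb2, which brings SOS1 to LAT, at 149 ± 12 and 157 ± 5.39. The remaining adaptors had 95% intervals that took in 0: Trat1, a transmembrane adaptor of the receptor complex, at -0.15 ± 0.101 (SE), Nck1, a link to the cytoskeleton, at 0.088 ± 0.078 (SE), Themis, a regulator of signal strength in thymocytes, at 0.029 ± 0.0965 (SE), and Pag1, the membrane anchor of CSK, at -0.023 ± 0.0837 (SE).

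The exchange factors and phospholipase C gamma 1, which turn the scaffold into RAS, RAC and calcium signals, had log2 fold changes from -0.063 to 0.042. Vav1 (ENSMUSG00000034116), an exchange factor for RAC, had the largest log2 fold change of the 4 in size. It stood at 221, 209, 215 and 266 CPM in vehicle replicates 1 to 4 and 219, 210.0, 219 and 224 CPM in dimethyl succinate replicates 1 to 4. Vehicle replicate 4 was highest and the groups overlapped, so its log2 fold change of -0.063 ± 0.0761 (SE) was 0.022 without that library. Rasgrp1, the diacylglycerol-dependent RAS activator, stood at 243, 238, 245 and 158 CPM with vehicle and 222, 232, 242 and 212 with dimethyl succinate, with vehicle replicate 4 at 65.3% of the others and a log2 difference of 0.042, which turned to -0.088 without it. Sos1, the other RAS activator, was at 0.041 ± 0.076 (SE), or -0.015 without vehicle replicate 4, and Plcg1 at -0.054 ± 0.0535 (SE), or -0.050 without it.

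Among the 3 phosphatases, Ptpn22 (ENSMUSG00000027843), a partner of CSK that dephosphorylates LCK and ZAP70, had the lowest unadjusted p of all members. It stood at 123, 133, 117 and 104 CPM in vehicle replicates 1 to 4 and 129, 147, 139 and 146 CPM in dimethyl succinate replicates 1 to 4. Of the vehicle libraries only replicate 2 reached into the dimethyl succinate range, above dimethyl succinate replicate 1. The groups differed on the log2 scale by 0.24 ± 0.0775 (SE; 95% interval 0.071 to 0.41), with an unadjusted p of 0.00887 and an adjusted p of 0.802 in edgeR. Without vehicle replicate 4 it was 0.18 ± 0.0566 (SE). Over all the alternatives tried the unadjusted p ran from 0.00191 to 0.0318 and the adjusted p from 0.285 to 0.936. Ptpn6, which encodes the inhibitory phosphatase SHP-1, stood at 198 ± 19.3 and 219 ± 7.23 CPM (SD, n = 4), or on the log2 scale a difference of 0.15 ± 0.0728 (SE), and 0.081 without vehicle replicate 4. Ptprc, which encodes CD45, the phosphatase that keeps LCK ready, was the member with the most counts, at 1749 ± 44.3 and 1649 ± 61.4 CPM, with a log2 fold change of -0.085 ± 0.0643 (SE).

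The 8 negative regulators had log2 fold changes from -0.035 to 0.13, with a median of 0.071 and 0 at an unadjusted p under 0.05 in edgeR. Dgkz (ENSMUSG00000040479), a diacylglycerol kinase that ends RASGRP1 activation, stood at 250.1, 232, 229 and 239 CPM in vehicle replicates 1 to 4 and 285, 255, 256 and 245 CPM in dimethyl succinate replicates 1 to 4. The groups overlapped by 1 vehicle library, replicate 1, above dimethyl succinate replicate 4. Between groups the log2 difference was 0.13 ± 0.0636 (SE) with an unadjusted p of 0.0592, and 0.14 ± 0.053 (SE) with a p of 0.0171 and an adjusted p of 0.452 without vehicle replicate 4, in edgeR. Dgka, the other diacylglycerol kinase, was at -0.035 ± 0.0607 (SE), and the ratio of Dgka to Dgkz in FPKM was 1.64 to 1.83 under vehicle and 1.45 to 1.59 under dimethyl succinate, ranges that did not overlap and were not tested. Ubash3a and Ubash3b encode a pair of related regulators that bind ubiquitin and dampen ZAP70. Ubash3a stood at 54.5, 50.1, 56 and 32.9 CPM with vehicle and 52.5, 51.6, 50.6 and 53.1 with dimethyl succinate, and Ubash3b at 36.2, 32.2, 33.8 and 42.8 and 38.2, 34.9, 38.4 and 38.7. In vehicle replicate 4 the first was lowest and the second highest of the 8 libraries, and their ratio in FPKM was 1.69 there against 3.31 to 3.65 in the other vehicle libraries. Cbl and Cblb, at 0.074 ± 0.0674 (SE) and 0.067 ± 0.0747 (SE), and the adaptors Sla and Sla2, at 0.019 ± 0.0594 (SE) and 0.084 ± 0.119 (SE), had intervals that took in 0. Of the exon bases of Sla2, 23.6% are shared with Rab5if on the opposite strand, so its count is uncertain.

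The 3 NFAT factors, which calcineurin sends to the nucleus after a calcium signal, all had log2 fold changes above 0 with the 8 libraries, and 1 passed an unadjusted p of 0.05. Nfatc1 (ENSMUSG00000033016), the factor whose own transcription is known to be induced by receptor signals, stood at 266, 272, 267 and 199.9 CPM in vehicle replicates 1 to 4 and 303, 305, 297 and 284 CPM in dimethyl succinate replicates 1 to 4. Every dimethyl succinate library lay above every vehicle library. On the log2 scale the groups differed by 0.24 ± 0.0888 (SE; 95% interval 0.052 to 0.44), with an unadjusted p of 0.0169 and an adjusted p of 0.802 in edgeR. It was 0.15 ± 0.046 (SE) without vehicle replicate 4, with an adjusted p of 0.268 in edgeR, and over all the alternatives tried the unadjusted p ran from 0.00155 to 0.0440. Nfatc2 stood at 150.3, 151, 150.1 and 106 CPM with vehicle and 149, 152, 149 and 159 with dimethyl succinate, so that apart from vehicle replicate 4 the 7 libraries lay between 149 and 159 CPM. Its log2 fold change of 0.13 ± 0.1 (SE) was 0.017 without that library, and that of Nfatc3, 0.095 ± 0.103 (SE), was -0.0022. Nfatc1 was the most abundant of the 3 per length, exceeding Nfatc2 by a ratio of 2.51 to 2.69 under vehicle and 2.54 to 2.88 under dimethyl succinate, and Nfatc3 by 1.72 to 2 and 1.9 to 2.26.

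Of 69 further genes of the pathway listed by role, 68 were tested. In edgeR 0 passed an adjusted p of 0.05, and 41 lay above 0 (60.3%, against 49.6% of all genes), with a median log2 fold change of 0.013. Without vehicle replicate 4, 35 lay above 0 (51.5%, against 50.0%), with a median of 0.0038. With all libraries 3 stood higher and 0 stood lower with an unadjusted p under 0.05 in edgeR (4.4% of 68 higher, against 2.93% of all genes). The 3 were Orai1, Sh2b3 and Wipf1. Orai1 (ENSMUSG00000049686), the pore of the calcium channel that opens when stores are emptied, stood at 107, 99.2, 106 and 84.5 CPM in vehicle replicates 1 to 4 and 136, 128, 122 and 114 CPM in dimethyl succinate replicates 1 to 4. Every dimethyl succinate library lay above every vehicle library. The groups differed on the log2 scale by 0.34 ± 0.0827 (SE), with an unadjusted p of 0.00133 and an adjusted p of 0.646 in edgeR. Without vehicle replicate 4 it was 0.27 ± 0.0581 (SE), and the adjusted p of 0.0461 in edgeR then passed the threshold. Orai1 was the 1 gene of the 68 to do so, where 0.197% of all genes did. It passed under no other alternative, and its adjusted p reached 0.936 among them. Without that library 5 of the 68 (7.4%) stood higher at an unadjusted p under 0.05 in edgeR, against 4.43% of all genes. Beside Orai1, Sh2b3 and Wipf1 these were Map2k2, the kinase that activates ERK, at 0.14 ± 0.0488 (SE) and Akt1, a kinase downstream of PI3K, at 0.12 ± 0.0499 (SE). Traf6 and Ptpn2 (2.9% of the 68) stood lower, at -0.12 ± 0.046 (SE) and -0.15 ± 0.0689 (SE), where 4.12% of all genes did. Sh2b3, which encodes the inhibitory adaptor LNK, stood at 55.7 ± 8.31 and 69 ± 7.33 CPM (SD, n = 4), with overlapping groups and a log2 fold change of 0.31 ± 0.107 (SE). Wipf1, a partner of the actin regulator WASP, differed by 0.14 ± 0.0596 (SE) on the log2 scale, and its groups did not overlap. Next by p came Ppp3cc, a catalytic subunit of calcineurin, at -0.15 ± 0.0712 (SE), Traf6, a ubiquitin ligase of the NF-kB route, at -0.12 ± 0.0539 (SE), Ptpn2, an inhibitory phosphatase, at -0.17 ± 0.0797 (SE), Cd226, an activating receptor, at 0.22 ± 0.103 (SE), and Cd96, its relative, at 0.25 ± 0.126 (SE). Groups did not overlap for 2 of the 68 that were higher, Orai1 and Wipf1 (2.9%, against 2.5% of all genes), and for 1 that was lower, Traf6 (1.5%, against 2.32%), shares near those of all genes. The receptor's own constant chains did not pass at either threshold, with log2 fold changes of 0.14 ± 0.0926 (SE) for Trac, -0.072 ± 0.0612 (SE) for Trbc1 and 0.091 ± 0.0918 (SE) for Trbc2. Without vehicle replicate 4 these were 0.045, -0.049 and 0.0021, and Cd96 was at 0.14.

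In the authors' deposited table, 4 members had a p under 0.05, all higher under dimethyl succinate, and the lowest adjusted p among members was 0.672. The 4 were the same genes as in the edgeR fit, which used the same libraries, so the match is not independent support. The share of all genes in the authors' table with a p under 0.05 was not computed. The count of members is therefore a description only. The authors' deposited table gave log2 fold changes of 0.31 for Sh2d2a (p 0.00788), 0.23 for Ptpn22 (p 0.00773), 0.24 for Nfatc1 (p 0.0142) and 0.21 for Cd5 (p 0.0225), and 4 of 24973 genes in that table had an adjusted p under 0.05, with 0 members among them.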

How the data were processed

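Messenger RNA libraries were made from TRIzol-extracted RNA, per the labels' protocols, and the submitters' processing notes name the aligner HISAT2 2.0.5. Counting tool, build, annotation and strand setting are not given in the sources used here. Start or end matched GENCODE M21 (GRCm38) for 99.2% of 54495 matched genes, which was taken as their build. The authors deposited raw counts and FPKM values, per the file headers, with group means as a normalised signal, log2 fold changes and p-values of their own comparison. The members and lists were chosen with earlier results of these data known.

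Counts of all 8 libraries were fitted with edgeR 4.0.16 in R 4.3.3 (filterByExpr, TMM scaling, robust quasi-likelihood F test, no covariate), two-sided, with Benjamini-Hochberg adjustment over 13981 genes at 0.05. Standard errors were taken from F, with 95% intervals. CPM used TMM-scaled library sizes. Named with every value were 8 fixed members, members with an unadjusted p under 0.05 (with or without vehicle replicate 4) or groups that do not overlap, the largest change of each role, and 8 other pathway genes by p. Replicates differed by more than counting noise (lowest chi-square per gene 2.17, where 1 is counting alone). On counts simulated from these means for 13981 genes, 200 were changed, all at 10 CPM or more. The test recovered 83.6% of 1.5-fold and 24.2% of 1.25-fold changes, with 15 false calls among the unchanged genes. Noise was drawn for each gene on its own. A library that stands apart over many genes, as vehicle replicate 4 does, was not simulated, so these rates may not hold for the real libraries. Alternatives were DESeq2 1.42.0, limma 3.58.1 (voom, and trend on log2(FPKM + 1)), other scalings and filters, a replicate block and each library left out.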

Additional observations from a re-analysis of the deposited data

Results flagged for a closer look

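Of 34 groups of 4 libraries checked (17 named members in each treatment), 9 held 1 library far from the other 3, judged by its gap to the nearest library as a share of the group's range (Dixon's test at its 95% limit). Chance flags about 1 in 20 groups of unselected values. That rate does not apply here, because some of the 17 members were named for their values without vehicle replicate 4 and all share the same libraries. Vehicle replicate 4 was the library in 6 of them. It was lowest for Nfatc1 (share 0.91), Cd247 (0.896), Cd28 (0.896), Cd4 (0.885) and Cd5 (0.852), and highest for Cd6 (0.85). Under dimethyl succinate, replicate 4 was highest for Cd3g (0.951) and lowest for Grap2 (0.865), and replicate 1 was highest for Lck (0.98).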

How the results depend on the processing

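Under each of the 16 alternatives 0 members passed an adjusted p of 0.05. The count of genes called over the whole table, 0 in edgeR with 805 at an unadjusted p under 0.05, was 4 in DESeq2 (744), 6 when low counts were kept (1595) and 1 under the replicate block (987), and it ran from 0 to 28 with each library left out. The 4 members higher at an unadjusted p under 0.05 numbered 2 when dimethyl succinate replicate 1 was dropped and 7 when vehicle replicate 4 was, the extremes, and those lower 0 to 2. Of the other pathway genes, those lower numbered 1 in DESeq2, limma-voom, RLE scaling, no filter, the stricter filter and the replicate block, 2 on log2(FPKM + 1), and 0 to 2 with a library left out, those higher 2 to 5, and those with an adjusted p under 0.05 from 0 to 1. Of 200 log2 fold changes of named genes under the 8 other settings, 200 kept their sign and side of the threshold. Among the named genes, the sign turned with a library left out for Cd3e (-0.030 to 0.15), Cd3g (-0.056 to 0.078), Lck (-0.016 to 0.072), Lat (-0.17 to 0.072), Vav1 (-0.10 to 0.022), Zap70 (-0.017 to 0.15) and Grap2 (-0.11 to 0.027). The cause was not tested. The number in the titles was not taken as a pairing. Correlations of same-numbered libraries' deviations from their group means ran from -0.014 to 0.13, and not every library correlated best with its own number. Vehicle replicate 4 and dimethyl succinate replicate 4, at 0.13, were each other's best partner. Vehicle replicate 4 also shifts the mean from which the other vehicle deviations are taken. The check therefore cannot settle whether the libraries were paired. The block called 1 gene over the whole table and 0 members. In counts simulated for 4 libraries against 4, the smallest change planted was missed more often than it was called. Changes as small as those of the members were not simulated, so how often such changes would be called was not tested.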
